A study of Mus musculus with 8 samples.

Results

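Grouped as meningeal fibroblast genes, 10 genes were measured in hippocampal RNA of 2 mouse strains, BTBR and B6. They are Aldh1a2, Slpi, Igf2, Igfbp2, Dcn, Lum, Mgp, Ogn, Ptgds and Slc6a13. The grouping is a label, and not every member followed other meningeal genes from array to array. The members were all probes outside the controls that the array files name for these genes, which gave 14 of 41174 probes and 10 of 27373 gene names. Total RNA from the whole hippocampus of 4 BTBR and 4 B6 mice was hybridized to 1-color Agilent arrays, 1 mouse per array. The BTBR group has the genotype BTBR T+ Itpr3tf/J and the B6 group is wild type C57BL/6J, and all 8 mice were untreated males of 5 months. The strain background field reads C57BL/6J for both groups, so BTBR arrays were recognized by their title, source name and genotype. BTBR is an inbred strain and not a single-gene mutant, used as a mouse model of autism spectrum disorder, and it is known to lack the corpus callosum and to have a reduced hippocampal commissure, so a strain difference cannot be assigned to 1 allele.

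Fibroblasts of the meninges build the collagen and proteoglycan layers that cover the brain and follow its larger vessels inward. The arachnoid and pial sheets lie against the hippocampal surface and the choroid fissure, where the choroid plexus is attached, so a dissected hippocampus may carry a variable amount of either tissue. Meningeal cells are a known source of retinoic acid, of insulin-like growth factor 2 and of prostaglandin D synthase in the brain, and epithelial cells of the choroid plexus share the last pair. In bulk tissue, fewer cells of a type and less RNA per cell cannot be told apart.

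Between 57.4% and 72.3% of the spots of an array were well above background, and no spot was saturated. Levels are normalized log2 intensities (local background subtracted, offset of 50, quantile normalized), a difference is BTBR minus B6 on that scale, and a probe was called at an adjusted p under 0.05 in limma over 27982 tested probes. The mean level of 18 hippocampal neuron markers was between 12.55 and 13.10 on 6 arrays, and lower in BTBR replicate 1 (11.88) and BTBR replicate 2 (11.50). The 13 thalamus markers had a mean level of 12.43 in BTBR replicate 1 and between 9.82 and 10.38 on the other 7 arrays. The 22 choroid plexus markers had mean levels of 10.68, 11.38, 11.44 and 10.11 in B6 replicates 1 to 4 and of 12.13, 12.04, 10.47 and 10.40 in BTBR replicates 1 to 4. Arrays of replicates 1 and 2 shared one slide and those of replicates 3 and 4 the other, with both strains on each.

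The probe stretches below are shown because each level reported rests on the probe's own sequence, and which exon or transcript a probe reads is not given here. They are the bases 1 to 30 of 60-base probes, 5′ to 3′, from the array files, and both Slpi probes and both Igf2 probes are given since the members of each pair differ in level or call.
Slpi probe A_52_P472324: ttactgttttaccactaacatctccttttg
Slpi probe A_51_P135148: tgagtaacaggagccacaaggtatgtctga
Aldh1a2 probe A_52_P58145: aaccagctagctcccttcaacccacagtat
Igf2 probe A_51_P516826: aacatgcattttctggcaaaatcaaagctt
Igf2 probe A_51_P516833: gacagaaactcaaagagtaaattgttataa

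The Slc6a13 probes overlap, and 40 of their 60 bases are the same, so they are not independent measurements. The stretches below are bases 11 to 40 of the first and bases 1 to 30 of the other, and capitals mark bases that both probes hold.
Slc6a13 probe A_52_P221824: attccagggtGGTCCACACATTGTGACGTG
Slc6a13 probe A_51_P438083: GGTCCACACATTGTGACGTGCCCGAATCAA

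Of the 14 member probes, 12 were bright enough to be tested, with at least 1 for each of the 10 genes. Slpi and 1 of the 2 Igf2 probes were called, both higher in BTBR. Among all tested probes 7.61% were called, and 3.31% were called higher. The strains did not overlap at these same 2 member probes, against 14.2% of all tested probes. Before adjustment, 5 of the 12 member probes had a limma p under 0.05, as did 18.5% of all tested probes. Taking for each gene its brightest tested probe, the leading probe, 7 of 10 genes had a higher mean in BTBR, with a median difference of 0.64 against 0.01 over all tested probes. The members varied widely within a strain: the median within-strain SD of the leading probes was 0.627, against 0.132 over all tested probes.

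**Figure D1:**
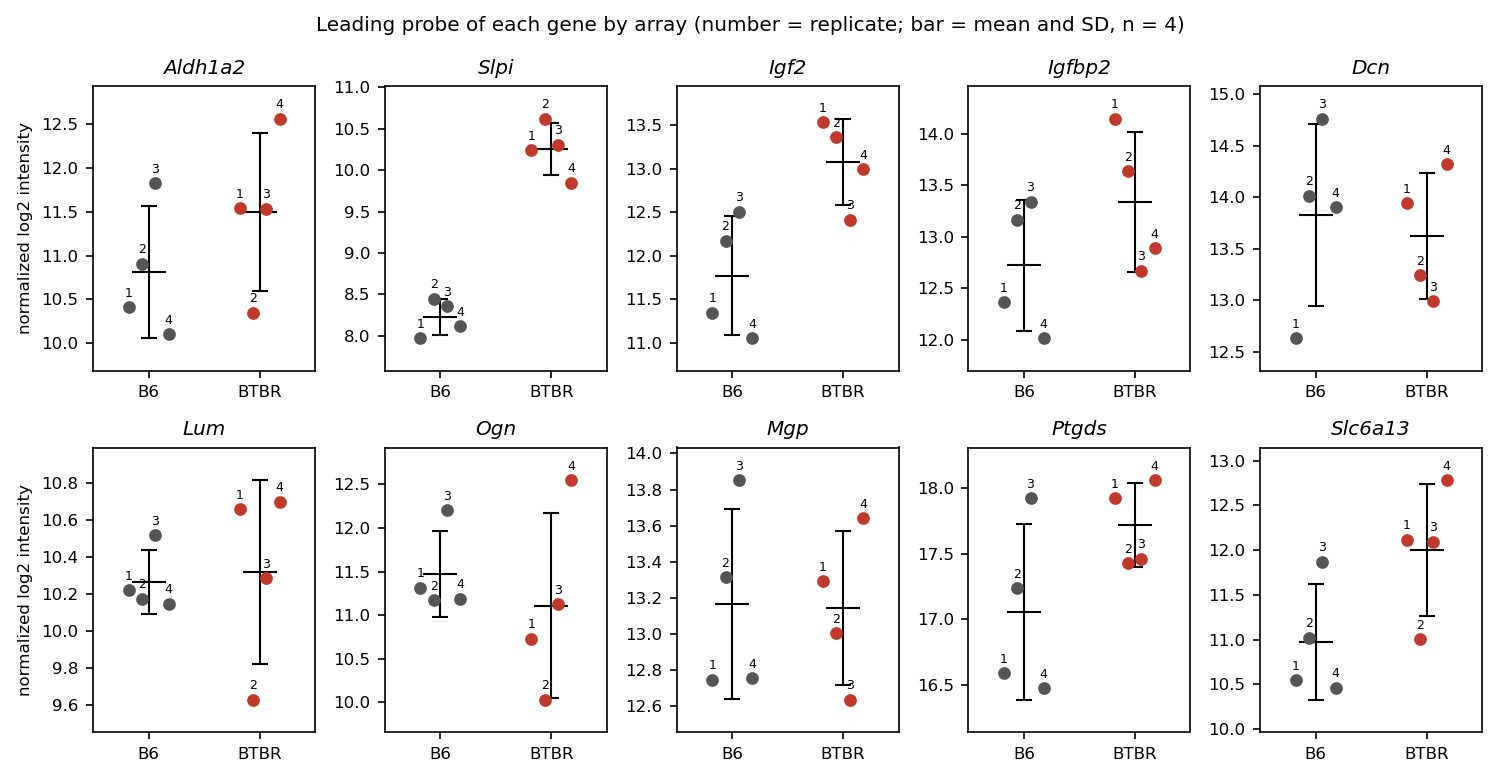
Normalized log2 intensity (y axis) of the leading probe of each gene on each array, by strain (x axis). Points are arrays numbered by replicate, and bars are the mean and SD of 4 arrays. Slpi is the gene whose strains are far apart, 8.23 against 10.25, while most others have arrays of both strains over the same range.

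Slpi encodes a secreted inhibitor of serine proteases such as neutrophil elastase. Its leading probe (A_52_P472324, NM_011414) lies at chr2:164179849-164179908 on the minus strand in mm9. It was at 7.97, 8.45, 8.36 and 8.12 in B6 replicates 1 to 4 and at 10.24, 10.62, 10.31 and 9.85 in BTBR replicates 1 to 4. Every BTBR array was above every B6 array. The mean was 8.23 ± 0.22 in B6 and 10.25 ± 0.32 in BTBR (SD, n = 4), a difference of 2.03 (SE 0.17, 95% interval 1.65 to 2.40, limma adjusted p = 8.5e-05), or 4.08-fold. The offset of 50 understates folds of dim probes. On the software's processed signal scaled to the 75th percentile, which changes background correction, scaling and offset together, the difference was 3.31. The exact permutation p was 0.0286, the smallest that 4 against 4 arrays allow. The software marked the spot as well above background on 3 of 4 arrays from B6 and on all 4 from BTBR. Within slide 1 the difference was 2.22 (limma adjusted p = 0.0020) and within slide 2 it was 1.84 (limma adjusted p = 0.0055).

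The other Slpi probe (A_51_P135148, accession U73004) lies at chr2:164185063-164185122, 5.21 kb from the leading probe. The RefSeq gene of GRCm38.p6 is 2438 bases long, so both positions cannot lie inside one gene model of that length. This probe was above background on 0 of 4 B6 arrays and 2 of 4 BTBR arrays and was not tested. It was at 7.67 to 7.78 in B6 and 7.74 to 7.96 in BTBR, so the Slpi difference rests on 1 probe.

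Aldh1a2 encodes the retinaldehyde dehydrogenase that makes retinoic acid in the meninges. Its probe (A_52_P58145, NM_009022) lies at chr9:71143931-71143990 on the plus strand in mm9. It was at 10.41, 10.91, 11.83 and 10.11 in B6 replicates 1 to 4 and at 11.54, 10.35, 11.54 and 12.56 in BTBR replicates 1 to 4. B6 replicate 3 was above 3 of the 4 BTBR arrays, and BTBR replicate 2 was below 3 of the 4 B6 arrays. The mean was 10.81 ± 0.75 in B6 and 11.50 ± 0.90 in BTBR (SD, n = 4), a difference of 0.68 (SE 0.49, 95% interval -0.42 to 1.79, limma adjusted p = 0.53). The exact permutation p was 0.343. Its within-strain SD of 0.832 was larger than that of 99.4% of tested probes, while that of Slpi, 0.272, was larger than that of 87.1%. It was 0.29 within slide 1 and 1.08 within slide 2, and the difference was 0.33 without BTBR replicate 4 and 1.07 without BTBR replicate 2. The rank product, a test on ranks of pairwise differences named in the study's methods, did call Aldh1a2 higher in BTBR, at a percentage of false predictions (pfp) of 0.0397. It called 6 of the 12 member probes, all higher in BTBR, against 3.93% of all tested probes in either direction and 1.64% higher. These were both Slc6a13 probes, which overlap, both Igf2 probes, Slpi and Aldh1a2, so the 6 are not independent. Its pfp comes from shuffling probes within each array, so it does not set a difference against the spread between mice.

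Igf2 encodes a growth factor of the insulin family, and Igfbp2 a secreted protein that binds such factors. The leading Igf2 probe (A_51_P516826, NM_010514, 10 spots) lies at chr7:149836673-149836709 on the minus strand in mm9. It was at 11.348, 12.172, 12.508 and 11.057 in B6 replicates 1 to 4 and at 13.532, 13.363, 12.414 and 12.996 in BTBR replicates 1 to 4. BTBR replicate 3 was below B6 replicate 3, and the other BTBR arrays were above all B6 arrays. The difference was 1.30 (SE 0.35, 95% interval 0.51 to 2.10) with a limma adjusted p of 0.060 and an exact permutation p of 0.0571. The other Igf2 probe (A_51_P516833), at chr7:149837115-149837174, was at 9.41, 10.02, 10.47 and 9.33 in B6 and at 11.47, 11.33, 10.49 and 10.91 in BTBR. B6 replicate 3 and BTBR replicate 3 nearly met, and every BTBR array was above every B6 array. Its difference was 1.24 (SE 0.29, 95% interval 0.58 to 1.90, limma adjusted p = 0.033, exact permutation p = 0.0286).

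The Igf2 call depended on single arrays. The called probe was at 1.68 within slide 1 (limma adjusted p = 0.0363) and 0.80 within slide 2 (limma adjusted p = 0.46), the slides were not shown to differ (interaction in limma, adjusted p = 0.577), and with slide as a block it was called at 1.24 (limma adjusted p = 0.037). With the replicate number as a block it was at 1.24 and not called (limma adjusted p = 0.0923). The difference of the called probe was 1.11, 1.31 and 1.08 without B6 replicates 1, 2 and 4, and 1.10, 1.15 and 1.29 without BTBR replicates 1, 2 and 4, with limma adjusted p between 0.0592 and 0.101. The leading probe was called without B6 replicate 3 (1.55, limma adjusted p = 0.0357) and without BTBR replicate 3 (1.53, limma adjusted p = 0.0315). The Igfbp2 probe (A_51_P423308, NM_008342, chr1:72898677-72898736) was at 12.36, 13.17, 13.34 and 12.02 in B6 and at 14.14, 13.64, 12.67 and 12.89 in BTBR. The strains overlapped for Igfbp2, with a difference of 0.61 (SE 0.39, 95% interval -0.26 to 1.49, limma adjusted p = 0.47). It was 1.13 within slide 1 and 0.10 within slide 2, and 0.34 without BTBR replicate 1.

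Decorin (Dcn), lumican (Lum) and osteoglycin (Ogn) are small leucine-rich proteoglycans of the collagen matrix. The Dcn leading probe (A_51_P334104, NM_007833, chr10:96980233-96980292) was at 12.63, 14.02, 14.76 and 13.90 in B6 and at 13.94, 13.25, 12.99 and 14.32 in BTBR. B6 replicates 1 and 3 were the lowest and the highest of the 8 arrays, so one strain spanned the other, and the difference was -0.20 (SE 0.45, limma adjusted p = 0.87). The other Dcn probe (A_52_P252726) was above background on 2 B6 arrays and 0 BTBR arrays and was not tested. Lum (A_51_P167527, NM_008524, chr10:97035210-97035269) was at 10.219, 10.172, 10.516 and 10.146 in B6 and at 10.657, 9.628, 10.283 and 10.697 in BTBR, a difference of 0.05 (SE 0.22, limma adjusted p = 0.93). BTBR held both the highest and the lowest Lum array. Ogn (A_51_P295085, NM_008760, chr13:49719549-49719608) was at 11.31, 11.17, 12.21 and 11.19 in B6 and at 10.73, 10.03, 11.13 and 12.55 in BTBR, a difference of -0.36 (SE 0.49, limma adjusted p = 0.77). Its highest array was BTBR replicate 4, as for Aldh1a2, and its lowest BTBR replicate 2, and the difference was -0.84 without the former and -0.0031 without the latter.

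Matrix Gla protein (Mgp) inhibits calcification of soft tissue. Its probe (A_51_P426270, NM_008597, chr6:136821125-136821184) was at 12.75, 13.31, 13.85 and 12.76 in B6 and at 13.29, 13.01, 12.64 and 13.64 in BTBR. Of the BTBR arrays, 3 lay within the B6 range and replicate 3 just below it, and the difference was -0.02 (SE 0.28, 95% interval -0.67 to 0.62, limma adjusted p = 0.98). Ptgds encodes prostaglandin D synthase, an abundant secreted protein of the cerebrospinal fluid. Its probe (A_51_P157406, NM_008963, chr2:25322842-25323373) was at 16.59, 17.24, 17.93 and 16.47 in B6 and at 17.93, 17.43, 17.46 and 18.06 in BTBR, a difference of 0.66 (SE 0.31, 95% interval -0.04 to 1.37, limma adjusted p = 0.30). B6 replicate 3 reached the level of BTBR replicate 1, while B6 replicates 1, 2 and 4 were below every BTBR array.

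Slc6a13 encodes GAT2, a GABA and taurine transporter of the meninges and of liver and kidney. The leading probe (A_51_P438083, NM_144512, chr6:121287597-121287656) was at 10.549, 11.021, 11.872 and 10.464 in B6 and at 12.117, 11.002, 12.095 and 12.779 in BTBR. BTBR replicate 2 lay among the B6 arrays, and the other BTBR arrays were above all of them. The difference was 1.02 (SE 0.41, 95% interval 0.10 to 1.94, limma adjusted p = 0.22, exact permutation p = 0.0857), and 1.05 (SE 0.43, limma adjusted p = 0.23) at the overlapping probe.

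The arrays were then compared by their deviations from the mean of their own strain, which keeps a difference between strains out of the comparison. B6 replicate 3 was above its strain mean for 10 of 10 genes and B6 replicate 1 for 0, B6 replicate 2 for 8 and B6 replicate 4 for 1. In BTBR the counts were 8, 3, 4 and 7 for replicates 1 to 4. The mean deviation over the 10 genes was -0.41, 0.13, 0.69 and -0.41 in B6 replicates 1 to 4 and 0.20, -0.38, -0.26 and 0.43 in BTBR replicates 1 to 4. Members therefore tended to be high or low on the same arrays of a strain.

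Of the 45 pairs of genes, 39 had a positive correlation of deviations over the 8 arrays, with a median r of 0.593 and a range from -0.644 to 0.993. The same share over other tested probes was not taken, so these values do not show whether it is particular to the members. After Benjamini-Hochberg adjustment over the 45 pairs, 3 passed for Pearson's r and 5 for Spearman's rho, by exact permutation within strains (smallest p 0.00174, two-sided). Each r was also taken without the 2 arrays farthest from the median of 1 gene of the pair, which is named here. Aldh1a2 and Slc6a13 had an r of 0.993 (exact p = 0.00174, adjusted 0.026) and a rho of 0.905 (exact p = 0.00347, adjusted 0.0312), and r was 0.993 again without BTBR replicates 2 and 4, the farthest for Aldh1a2. Aldh1a2 and Ptgds had an r of 0.837 (exact p = 0.00174, adjusted 0.026; rho 0.881, exact p = 0.00347, adjusted 0.0312), and r was 0.954 without those 2 arrays. Ptgds and Slc6a13 had an r of 0.843 (exact p = 0.00174, adjusted 0.026; rho 0.905, exact p = 0.00174, adjusted 0.0312), and 0.745 without B6 replicates 3 and 4, the farthest for Ptgds. With the slide mean removed as well, these 3 pairs had r of 0.994, 0.955 and 0.946, and the median over the 45 pairs was 0.83. A slide holds 2 arrays of each strain, too few for a coefficient within it. Their deviations are then equal and opposite, so an r with the slide mean removed rests on fewer independent values than 8.

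**Figure D2:**
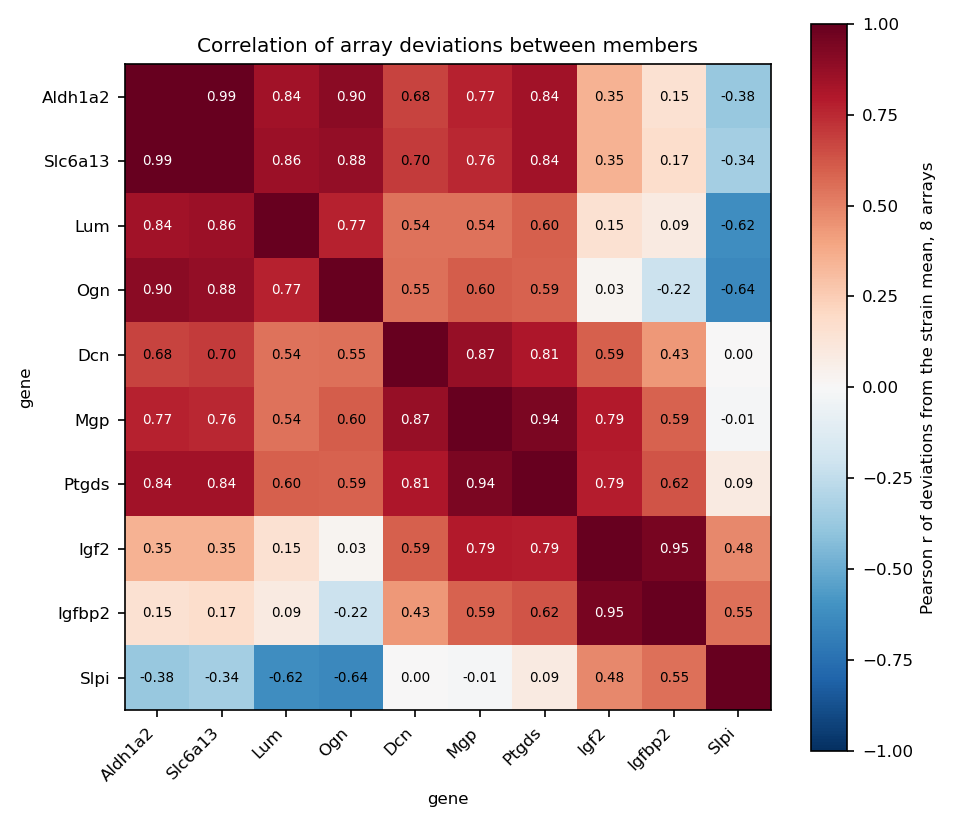
Pearson r (color) of the deviations from the strain mean over 8 arrays for each pair of the 10 genes (both axes). Aldh1a2 with Slc6a13 (0.993) and Igf2 with Igfbp2 (0.946) are the pairs with the highest r, and the Slpi row holds 5 of the 6 negative values, none of which stays negative for Slpi without BTBR replicates 2 and 4.

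Igf2 and Igfbp2 were alike in the same way. Their r was 0.946 (exact p = 0.00694, adjusted 0.0558), their rho 0.952 (exact p = 0.00347, adjusted 0.0312), and r was 0.895 without B6 replicate 4 and BTBR replicate 3, the farthest for Igf2. Igf2 had an r of 0.351 with Aldh1a2 and 0.0278 with Ogn, and Igfbp2 an r of 0.153 with Aldh1a2 and -0.217 with Ogn. With the slide mean removed the 4 coefficients were 0.876, 0.689, 0.896 and 0.613. These rest on fewer independent values and cannot be set beside the former as equals. Without BTBR replicates 2 and 4, the farthest for Aldh1a2, that gene had an r of 0.791 with Igf2 and 0.667 with Igfbp2. Ogn had an r of -0.0925 with Igf2 without the arrays farthest for Igf2 (B6 replicate 4 and BTBR replicate 3). It had an r of -0.281 with Igfbp2 without those farthest for Igfbp2 (B6 replicate 4 and BTBR replicate 1). Igf2 also had an r of 0.792 with Mgp (exact p = 0.066, adjusted 0.179) and 0.789 with Ptgds (exact p = 0.0677, adjusted 0.179). Dcn and Mgp had an r of 0.87 (exact p = 0.0139, adjusted 0.0639) and a rho of 0.952 (exact p = 0.00347, adjusted 0.0312), and r was 0.895 without B6 replicates 1 and 3, the farthest for Dcn.

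The correlations of Slpi with the other members depended on 2 arrays. Over all 8 arrays 4 of its 9 correlations were positive, with a median r of -0.0102, whereas Aldh1a2 had 8 of 9 positive with a median of 0.77. Without BTBR replicates 2 and 4, the arrays farthest from its median, 9 of 9 were positive, from 0.163 to 0.701, and with the slide mean removed over all arrays 3 of 9 were. The r of Slpi with Aldh1a2 was -0.379 (exact p = 0.425, adjusted 0.547; rho -0.238, exact p = 0.622, adjusted 0.699) and turned to 0.675 without those arrays. The r of Slpi with Ogn was -0.644 (exact p = 0.144, adjusted 0.259; rho -0.548, exact p = 0.25, adjusted 0.388) and 0.337 without the same arrays. The highest r of Slpi was 0.552, with Igfbp2 (exact p = 0.194, adjusted 0.297; rho 0.429, exact p = 0.344, adjusted 0.483), and 0.516 without those arrays. Without Slpi and Aldh1a2, 27 of 28 pairs were positive, with a median r of 0.602.

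The genes whose deviations were most like those of Aldh1a2 among all tested genes, outside the members, were Foxc1 (r = 0.991), Itih2 (0.985), Gjb2 (0.983), Slc22a6 (0.982) and Gpr182 (0.979). Foxc1 is a forkhead transcription factor of the developing meninges, Gjb2 a gap junction protein and Slc22a6 an organic anion transporter. The first 4 are on the list of other meningeal fibroblast genes. Their differences between strains were 0.26, 0.55, 0.61, 0.28 and 0.14, none called. For Slpi the closest were Znhit6 (0.974), Brms1 (0.973), Cox8b (0.967), Camk4 (0.964) and Fabp4 (0.961), with differences of -0.04, 0.14, -0.28, 0.30 and -0.05, none called and none on that list. These r are the extremes of 27982 probes over 8 arrays and carry no p. Slpi ranked 23899 of the 27982 probes in likeness to Aldh1a2.

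Members were set beside the mean deviation of 56 other meningeal fibroblast genes and of 22 choroid plexus genes (20 relations, added after the data were seen, exact permutation, Benjamini-Hochberg over the 20). With the meningeal level, Ptgds had an r of 0.966 and Mgp of 0.961 (each exact p = 0.00347, adjusted 0.0347; rho 0.929, exact p = 0.00694, adjusted 0.0694), and without the 2 arrays farthest for each gene r was 0.963 and 0.914. Dcn, Slc6a13, Lum and Ogn had r of 0.821, 0.809, 0.673 and 0.574 with that level (exact permutation, adjusted p = 0.109, 0.0637, 0.109 and 0.26). Without the farthest arrays of each these were 0.853, 0.72, 0.868 and -0.0159. With the choroid plexus level the same genes had r of 0.186, -0.124, -0.193 and -0.476, none passing adjustment. Aldh1a2 had an r of 0.811 with the meningeal level (exact p = 0.0191, adjusted 0.0637; rho 0.786, exact p = 0.0451, adjusted 0.129) and of -0.139 with the choroid plexus level (exact p = 0.844, adjusted 0.903; rho -0.167, exact p = 0.785, adjusted 0.921), and 0.848 and 0.595 without BTBR replicates 2 and 4. Igfbp2 had an r of 0.951 with the choroid plexus level (exact p = 0.00521, adjusted 0.0347; rho 0.857, exact p = 0.0139, adjusted 0.0926) and 0.911 without the farthest arrays. Igf2 had an r of 0.852 with it (exact p = 0.0174, adjusted 0.0637; rho 0.738, exact p = 0.0278, adjusted 0.111) and 0.724 without the farthest arrays. With the meningeal level, Igf2 had an r of 0.805 (exact p = 0.0556, adjusted 0.123; rho 0.857, exact p = 0.0208, adjusted 0.104) and Igfbp2 of 0.668 (exact p = 0.0851, adjusted 0.17; rho 0.714, exact p = 0.0903, adjusted 0.181), and 0.64 and 0.433 without the farthest arrays of each. Slpi had an r of -0.0329 with the meningeal level (exact p = 0.924, adjusted 0.924; rho 0.0714, exact p = 0.875, adjusted 0.921) and of 0.682 with the choroid plexus level (exact p = 0.125, adjusted 0.227; rho 0.643, exact p = 0.153, adjusted 0.278), and 0.605 and 0.433 without BTBR replicates 2 and 4.

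**Figure D3:**
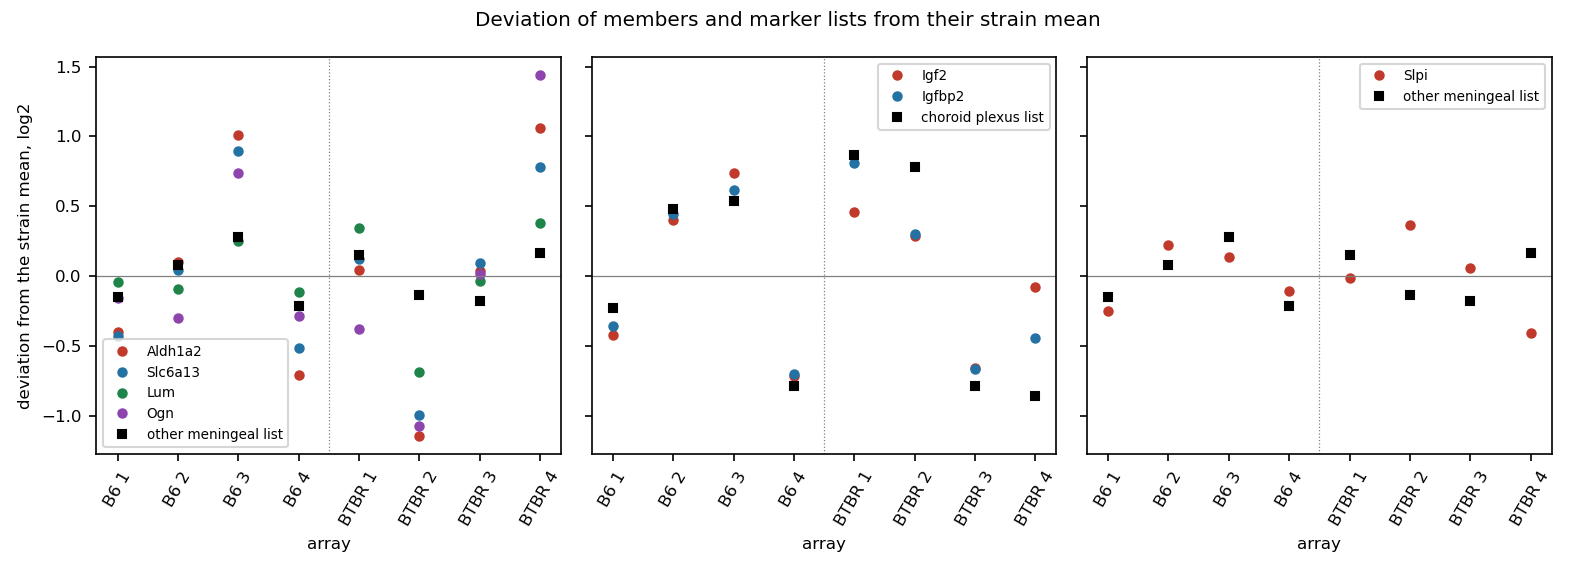
Deviation from the strain mean in log2 units (y axis) on each array (x axis) for Aldh1a2, Slc6a13, Lum and Ogn (left), Igf2 and Igfbp2 (middle) and Slpi (right), with the mean deviation of a marker list as squares. Aldh1a2 and Slc6a13 are high together in B6 replicate 3 and BTBR replicate 4 and low together in BTBR replicate 2, and Igf2 and Igfbp2 are low together in B6 replicate 4 and BTBR replicate 3.

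The strain differences were then fitted again in limma with a marker level as a covariate, which leaves 5 residual degrees of freedom. Whether the genes of a marker list are confined to that tissue in these samples was not tested. With the level of the other meningeal genes the strain term was called at 1264 probes (4.52%) in place of 2129, and limma called the slope on that level at none (615 with an unadjusted p under 0.05). The mean level of the other meningeal genes was 9.86, 10.09, 10.29 and 9.80 in B6 and 10.39, 10.10, 10.06 and 10.40 in BTBR, so its mean was 0.23 higher in BTBR with the strains overlapping. With this level in the fit, the difference of Slpi was 2.04 (SE 0.21, limma adjusted p = 0.0011), close to the 2.03 without it. That of Aldh1a2 was -0.06 (SE 0.36, limma adjusted p = 0.98), against 0.68 without it. Slc6a13 was at 0.40, Ptgds at 0.10 and Igfbp2 at 0.13, none called. Igf2 was at 0.78 and 0.83 at its leading and other probe (limma adjusted p = 0.21 and 0.124), so its call was lost. Mgp was called lower in BTBR in this fit, at -0.53 (SE 0.12, limma adjusted p = 0.0449), and Dcn was at -0.89 (SE 0.32, limma adjusted p = 0.25).

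With the choroid plexus level instead, whose mean was 0.36 higher in BTBR, 2467 probes (8.82%) were called, Slpi was at 1.94 (SE 0.13, limma adjusted p = 4.3e-05) and Aldh1a2 at 0.74 (SE 0.51, limma adjusted p = 0.51). Both Igf2 probes were called, at 1.08 (SE 0.20, limma adjusted p = 0.0116) and 1.05 (SE 0.16, limma adjusted p = 0.0041). Igfbp2 was at 0.33 (SE 0.14, limma adjusted p = 0.21), against 0.61 without the covariate. Limma called the slope on the choroid plexus level at 1621 probes (6249 with an unadjusted p under 0.05). Among them were Igfbp2 (slope 0.77, limma adjusted p = 0.0089) and both Igf2 probes (slopes 0.63 and 0.53, limma adjusted p = 0.040 and 0.0348). A change of these cells' gene activity with strain and a different share of attached tissue cannot be told apart from the list levels, since the lists are measured in the same RNA.

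**Figure D4:**
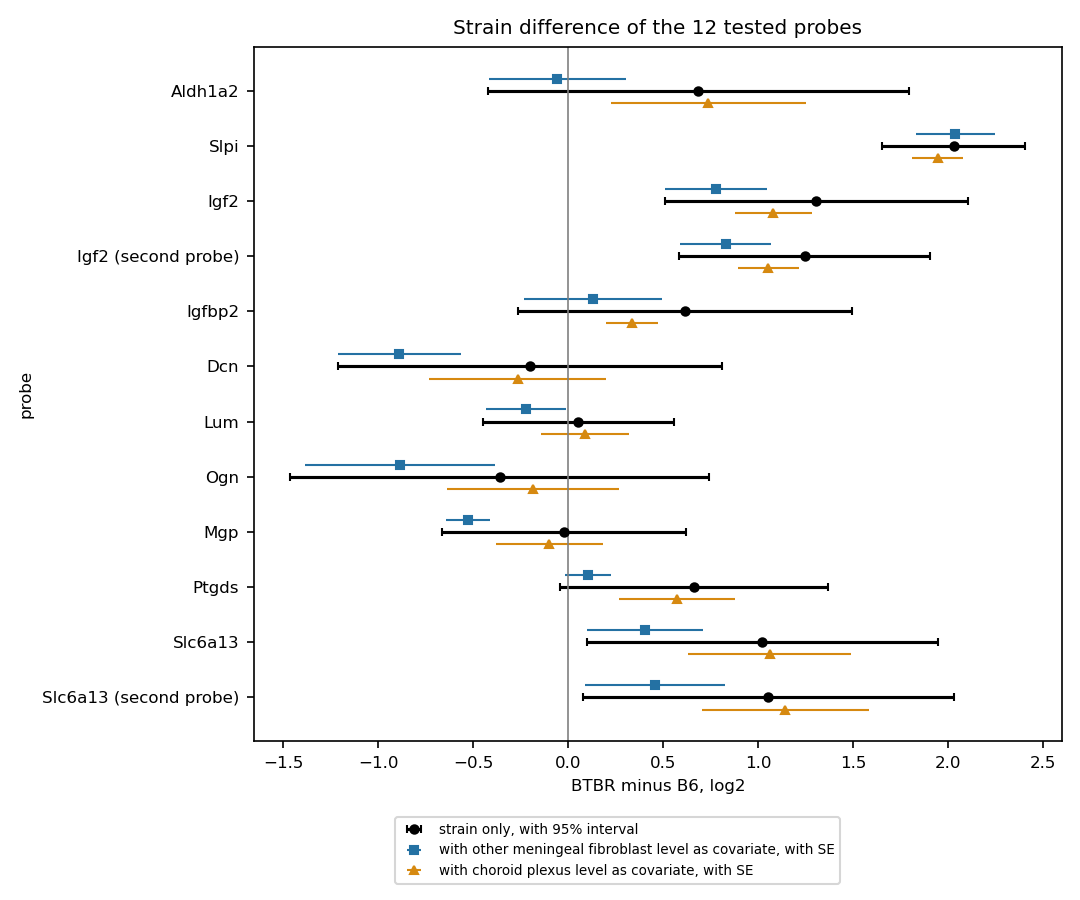
BTBR minus B6 in log2 units (x axis) for the 12 tested probes (y axis), fitted with strain alone (black, 95% interval) and with the level of the other meningeal genes (blue) or of choroid plexus genes (orange) as a covariate (bars are SE). Slpi stays near 2.03 in each fit, and Aldh1a2 moves from 0.68 to -0.06 with the meningeal level.

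Of the 60 other meningeal fibroblast genes listed, 56 were tested, 4 were called higher and 2 lower in BTBR, and 42 had a higher mean, with a median difference of 0.17. Before adjustment 17 of the 56 had a limma p under 0.05, and the rank product called 7. Over all tested probes these shares were 18.5% and 3.93%, which also stand beside such counts for the lists below. Over the leading probes of all 18399 gene names, 7.82% were called, 52.9% had a higher mean in BTBR and the median was 0.01. The called genes with the smallest adjusted p were Cdh11, a cadherin (0.76, SE 0.10), Col12a1, a collagen chain (-0.48, SE 0.08), and Fbln5, an elastic fiber protein (1.37, SE 0.27), with limma adjusted p of 0.0015, 0.0055 and 0.0142. The other Cdh11 probes were at -0.12 and -0.05 and not called. Crabp2, Cdh1, Mfap5 and Cpz were not tested. Limma called none of the 22 choroid plexus genes, with a median of 0.29, while 2 had an unadjusted p under 0.05 and the rank product called 2. It called none of 16 mural genes (median -0.01, 3 before adjustment, 0 by the rank product) or of 10 ependymal genes (median 0.36, 1 before adjustment, 0 by the rank product). Of 18 endothelial genes, 2 were called, Vwf (0.97, SE 0.16, limma adjusted p = 0.0062) and Mfsd2a (0.51, SE 0.10, limma adjusted p = 0.0167), with 3 before adjustment and 1 by the rank product. Neither limma, before or after adjustment, nor the rank product called any of 8 border macrophage genes (median -0.02) or of 2 blood genes (median 0.31). Of the 13 thalamus genes limma called none (median 0.69, 0 before adjustment, 2 by the rank product), and of the 18 hippocampal neuron genes none (median -0.52, 5 before adjustment, 6 by the rank product).

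The pathways around the members were read against the same 7.82% of all leading probes called. Counts before adjustment and by the rank product stand beside 18.5% and 3.93% of all tested probes. In the retinoic acid pathway limma called 0 of 20 tested genes (median 0.04, 2 before adjustment, 1 by the rank product). In the insulin-like growth factor pathway it called 0 of 13 (median 0.05, 1 before adjustment, 0 by the rank product). Small leucine-rich proteoglycans other than the members gave 0 of 8 (median 0.01, 0 before adjustment and by the rank product), and GABA, betaine and taurine transporters 0 of 7 (median 0.17, 0 before adjustment, 1 by the rank product). Among 11 protease inhibitors and whey acidic proteins, Serpina3n, a secreted serine protease inhibitor of reactive astrocytes, was higher in BTBR by 2.24 (SE 0.21, limma adjusted p = 0.00022), and the list median was 0.10. In the prostaglandin D pathway 2 of 10 genes were called, both lower in BTBR, while the means of 5 were higher and of 5 lower: Ptgs2, cyclooxygenase-2, which feeds prostaglandin synthesis, at -0.78 (SE 0.08, limma adjusted p = 0.00029), and Hpgd, which breaks prostaglandins down, at -1.13 (SE 0.12, limma adjusted p = 0.00039). A further probe of each was also lower, at -0.66 and -1.17. Of 10 genes tied to matrix Gla protein and calcification, Enpp1, which makes the calcification inhibitor pyrophosphate, was lower at its leading probe by the call (-1.37, SE 0.13, limma adjusted p = 0.00024) and at 0.38 at its other probe, not called.

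Probes of other genes near the members were counted within 1 Mb, beside the 7.61% of all tested probes called (18.5% before adjustment, 3.93% by the rank product). Near Mgp 12 of 26 probes (46.2%) were called, 5 higher and 7 lower, although Mgp itself was at -0.02. The smallest adjusted p there were those of probes of Strap (-2.41), BC049715 (1.76) and Hist4h4 (-1.89), while another Strap probe was at -0.24 (limma adjusted p = 0.19). Near Slpi 6 of 67 (8.96%) were called, led by probes of Sys1 (-1.08), Sdc4 (-0.64) and Dbndd2 (-0.63), all smaller in size than the Slpi difference. These are differences of single probes: the other Sdc4 probe was called at 0.59, the other Sys1 probe was at -0.0027 and the other Dbndd2 probes at 0.03 and 0.02, none of the last 3 called. Near Aldh1a2 4 of 26 (15.4%) were called, led by 4930520O04Rik (-2.93, and -1.46 at another probe). Near Ptgds the count was 5 of 87 (5.75%), near Igf2 1 of 48 (2.08%, a Cars probe at -0.41, with its other probes at -0.13 and 0.06 and not called), and near Igfbp2, Dcn, Lum, Ogn and Slc6a13 limma called 0, with 1, 0, 0, 1 and 2 probes at an unadjusted p under 0.05 and 0, 0, 0, 0 and 1 by the rank product.

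**Figure D5:**
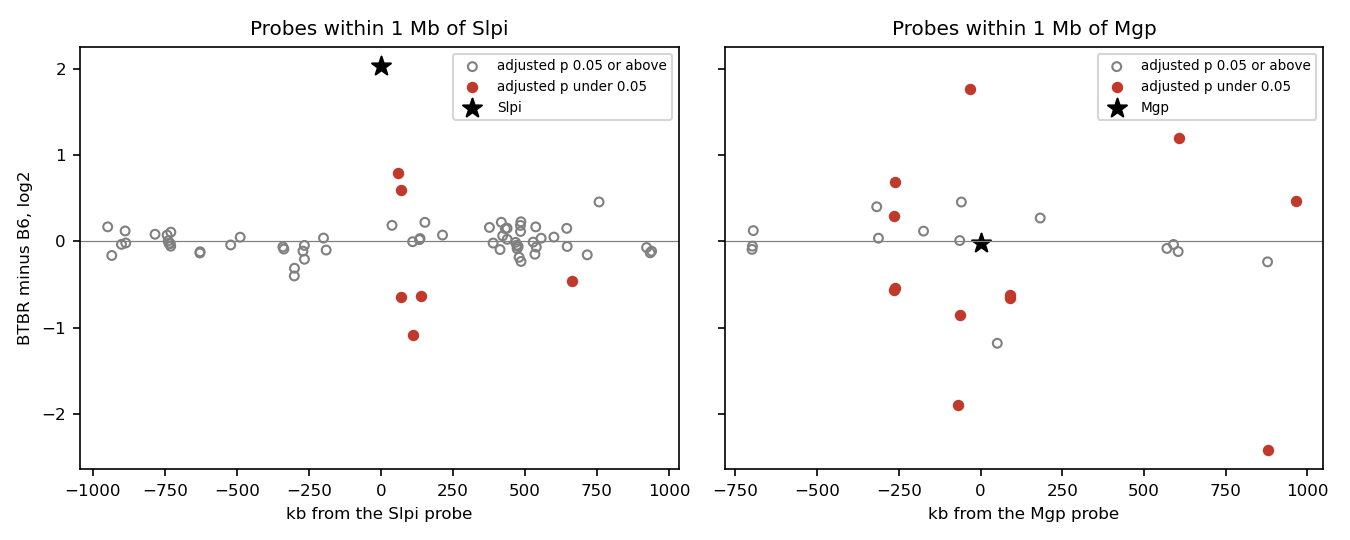
BTBR minus B6 in log2 units (y axis) of probes of other genes within 1 Mb of Slpi (left) and Mgp (right), by distance in kb from the member's probe (x axis). Filled points are called in limma, and the star is the member. Near Slpi 6 of 67 probes are called and near Mgp 12 of 26.

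The 250 bases before the transcription start are shown for Slpi, the member with the largest strain difference, and for Aldh1a2 and Slc6a13, the pair whose deviations were most alike (RefSeq, GRCm38.p6, gene strand, 5′ to 3′; Slc6a13 has 3 entries and its first is shown). Dcn, Lum and Mgp are not in the promoter table, and the other 7 members have 13 entries. Capitals mark the TATA box TATAAA, the CAAT box CCAAT, the GC box GGGCGG, the nuclear receptor motif AGGTCA, the AP-1 motif TGANTCA and the forkhead motif GTAAACA, searched on both strands with overlaps allowed.
Slpi promoter, chr2:164356508-164356757, minus strand: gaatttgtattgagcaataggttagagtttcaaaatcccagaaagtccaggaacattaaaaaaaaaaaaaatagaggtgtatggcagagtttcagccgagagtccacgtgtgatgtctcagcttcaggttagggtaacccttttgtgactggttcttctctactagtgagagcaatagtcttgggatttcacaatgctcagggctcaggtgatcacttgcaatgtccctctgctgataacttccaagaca
Aldh1a2 promoter, chr9:71215539-71215788, plus strand: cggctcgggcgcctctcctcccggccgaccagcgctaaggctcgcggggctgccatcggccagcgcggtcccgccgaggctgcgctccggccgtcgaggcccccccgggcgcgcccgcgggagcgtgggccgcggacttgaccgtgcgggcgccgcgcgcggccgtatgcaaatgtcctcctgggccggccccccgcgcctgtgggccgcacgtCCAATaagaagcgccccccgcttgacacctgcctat
Slc6a13 promoter, chr6:121300038-121300287, plus strand: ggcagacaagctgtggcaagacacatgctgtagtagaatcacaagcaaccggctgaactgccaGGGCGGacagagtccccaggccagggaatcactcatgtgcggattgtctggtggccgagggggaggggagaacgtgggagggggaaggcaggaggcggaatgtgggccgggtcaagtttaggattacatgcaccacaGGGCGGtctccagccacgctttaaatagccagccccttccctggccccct

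None of the 6 motifs is in the Slpi window, which is 42.0% G and C, against a median of 52.4% over all 32851 promoters of the table. The Aldh1a2 window, at 77.6% G and C, holds 1 CCAAT, found in 33.8% of all promoters. The Slc6a13 window, at 60.8%, holds 2 GGGCGG, found in 32.7% of all promoters. Over the 13 member entries, CCAAT was in 3 (Aldh1a2, Igf2 and Slc6a13), GGGCGG in 4 (of Igfbp2, Igf2 and Slc6a13), AGGTCA in 2, TGANTCA in 2 (Igfbp2 and Ptgds), TATAAA in 1 (Ogn) and GTAAACA in 0. The shares over all promoters were 14.0% for AGGTCA, 6.75% for TGANTCA, 12.4% for TATAAA and 3.17% for GTAAACA. These are matches of letters and not binding sites.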

How the data were processed

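RNA of 8 whole hippocampi (4 BTBR, 4 B6) was measured on 1-color Agilent arrays, grouped by the strain in title, source and genotype. The intensity values (mean spot, local background and processed signal) are as deposited by the authors, and their headers name version 10.7.3.1 of Agilent Feature Extraction (9.1 per the submitters' processing notes), and other values used are that software's deposited flags. A deposited matrix of log2 values, which the authors had background subtracted and quantile normalized, served as an alternative. Probe positions are mm9 per the file headers. No genome of that build was used here, so exons and UTRs under probes are not given.

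Here each spot's mean intensity less its median local background was floored at 0.5, raised by an offset of 50, put on the log2 scale and quantile normalized across arrays (R 4.3.3, limma 3.58.1). Controls were dropped, as were spots flagged as outliers anywhere (154 probes lost), replicate spots took their median, and a probe was tested if well above background on at least 75% of the arrays of a strain. Limma fitted strain over 27982 probes with Benjamini-Hochberg adjustment, called under 0.05. The array number limits precision, and p-values measure the spread between these 8 mice. Exact permutation tests used 70 labelings of the arrays or all orders within strains, two-sided. The fit was tested on simulated data. Sequences and plots used Python 3.11.15, NumPy 2.4.6, pandas 2.3.3 and matplotlib 3.10.9. Alternatives covered background, scaling, filters, slide, replicate block, rank product (100 permutations, pfp of 0.05 or less), covariates and single arrays left out.

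Members and lists were chosen with earlier results of these data known. Named were all member probes, in each list the called genes with the 3 smallest adjusted p, the 5 genes most like Aldh1a2 or Slpi, and up to 3 called neighbours of a member. Further probes of named genes and the motifs were chosen after values were seen.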

Additional observations from a re-analysis of the deposited data

Results flagged for a closer look

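Ogn in B6 had 1 array far from the others: B6 replicate 3 was at 12.2, and the next array at 11.3, so the gap was 0.863 of the range of the 4 arrays. Among the 20 groups looked at (10 genes in 2 strains) it was the 1 group past the limit of Dixon's test, and chance gives about 1 in 20. The same array had the highest mean deviation over the 10 genes, 0.69.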

How the results depend on the processing

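Each strain carried 4 arrays, Slpi was read by 1 tested probe that was above background on 3 of 4 B6 arrays, and 8 arrays limit every correlation. The Slpi difference was between 1.60 (deposited matrix) and 3.31 (75th percentile) over 24 alternatives that could give it, always called, and between 1.90 and 2.16 with single arrays left out. Probes above background on all 8 arrays leave Slpi untested.

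The member probes called were 2, and 1 with probes above background on all 8 arrays, 1 with the replicate block, 1 within slide 2, and 1 with BTBR replicates 1 and 2 left out, an alternative chosen after seeing the data for their lower neuron markers. The rank product, which shuffles probes within arrays and does not measure the spread between mice, called 6 (both Slc6a13 and both Igf2 probes, Slpi and Aldh1a2), and 3.93% of all tested probes. Leaving out single arrays gave 1 to 3. The positive pairs were 31 to 43 of 45, the lowest without B6 replicate 3. With the meningeal level as a covariate Aldh1a2 turned to -0.058 and Lum to -0.22. Within slide 1 Dcn was at 0.27, Lum at -0.053 and Mgp at 0.12, within slide 2 Ogn was at 0.14, and without both BTBR arrays Ogn was at 0.37. With single arrays left out Mgp ranged from -0.19 to 0.21, Ogn from -0.84 to -0.0031, Dcn from -0.60 to 0.11 and Lum from -0.074 to 0.28. The cause of these shifts was not tested.

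The replicate numbers did not pair the arrays: same-numbered arrays had correlations of deviations of -0.14, 0.51, -0.10 and 0.39, and 2 of 4 B6 arrays correlated best with their own number. The replicate block moved the count from 2 to 1, by the other Igf2 probe (1.24, limma adjusted p = 0.0923). The smallest limma adjusted p of a slide by strain interaction among member probes was 0.577.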
